A study of Homo sapiens with 6 samples.

Results

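The 10 genes described here encode secreted factors that senescent cells are known to release: the gp130 cytokines IL11 and LIF, the colony-stimulating factors CSF1 and CSF3, the CXC chemokines CXCL1, CXCL2, CXCL5 and CXCL8, the CC chemokine CCL2, and the matrix metalloproteinase MMP3. They were chosen by name, with earlier results of these data known, and all 10 were found among the 20030 genes of the count table. Of these, 8 passed the filter on low counts and were tested, CXCL2 did not pass it and CCL2 had no read in any library. After KIF11 knockdown, 7 of the 8 tested genes were higher and none was lower. Of the 8, 5 reached the filter in fewer than 3 sh-ctrl libraries, so they were tested because they were high in sh-KIF11. IL11 rose most, from about 9 to about 170 counts per library, and CXCL8 became the most abundant of the 10 per unit of transcript length. These calls stand in a comparison in which 69.1% of all 12369 tested genes were called changed, 34.4% higher and 34.7% lower, so a call alone does not set a gene apart here, and the size of each change is given with the counts behind it.

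The cells were HepG2, a human hepatoma line with hepatocyte-like expression. They carried either a control short hairpin RNA (sh-ctrl, 3 libraries) or a hairpin against KIF11 (sh-KIF11, 3 libraries), both given by lentivirus with puromycin selection. KIF11 is a kinesin motor that pushes the poles of the mitotic spindle apart. The labels name 1 knockdown group with no hairpin number, no time after infection is given in them, and nothing says that the 3 libraries of a group came from separate cultures, so the p-values below measure the spread between these libraries, which may be technical. KIF11 itself gave 1976, 2088 and 2039 counts in sh-ctrl against 1448, 1478 and 1240 in sh-KIF11. The groups did not overlap, and the log2 fold change was -0.75 (SE 0.0573, edgeR quasi-likelihood test, adjusted p = 4.22e-15).

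Libraries held 18167773 to 19583282 counts. At this depth 3 counts, taken as the detection limit of a library, corresponded to 0.145 to 0.178 CPM (the read count scaled by edgeR's TMM method to library size). Hepatocyte markers were abundant in every library, at a summed 31880 to 33430 CPM in sh-ctrl and 14124 to 15268 CPM in sh-KIF11, with 7 of 8 lower in sh-KIF11. TTR, an exception, did not pass the test. Of 8 markers of leukocytes, which also secrete these factors, only 3 were tested, and all 3 were called lower. The summed level of the list (2482 to 2977 CPM in sh-ctrl, 505 to 637 CPM in sh-KIF11) was mostly LYZ, with CD68 and CD14 as the other tested markers. PTPRC, the pan-leukocyte antigen, had at most 1 count in any library, and CD163 and TYROBP had none. ITGAM, an integrin of myeloid cells, went from 1, 2 and 0 counts to 5, 7 and 4, and CD3E had 3 counts in 1 sh-KIF11 library and none elsewhere. Of 8 fibroblast markers DCN and THY1 had no count and only PDGFRB was tested, and it was lower (log2 fold change -1.16). Untested markers of that list went either way at a few counts, COL1A1 from 1, 1 and 1 to 4, 2 and 6, PDGFRA from 0, 0 and 0 to 3, 1 and 5, COL3A1 from 0, 1 and 0 to 3, 0 and 3, COL1A2 from 0, 7 and 0 to 0 throughout, and LUM from 1 count in all to 0. The list had a summed level of 2.55 to 3.93 CPM in sh-ctrl and 1.45 to 2.19 CPM in sh-KIF11. Of 4 endothelial markers 2 were tested, PECAM1 was not called and VWF was higher (1.01). The endothelial list had a summed level of 3.16 to 3.56 CPM in sh-ctrl and 4.69 to 4.98 CPM in sh-KIF11. The part of these markers in the results was not tested. In such bulk libraries a change in the number of expressing cells and a change in RNA per cell cannot be told apart.

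Senescent cells stop dividing but stay metabolically active and release cytokines, chemokines and proteases, a programme called the senescence-associated secretory phenotype (SASP). NF-kB and C/EBP transcription factors are known to drive many of its genes, and their mRNAs often carry AU-rich elements in the 3′ untranslated region, at which decay factors act. CXC chemokines with an ELR motif recruit neutrophils through CXCR1 and CXCR2, CSF1 and CSF3 act on macrophages and granulocytes, and IL11 and LIF signal through the shared receptor chain gp130 (IL6ST) to JAK kinases and STAT3.

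Promoter sequence was at hand for IL11 and the 4 CXC chemokine genes, and it is shown because one 9-letter run was shared by CXCL1, CXCL5 and CXCL8, which were called higher, and by CXCL2, whose groups overlapped and which was not tested. The 250 bases before the annotated start are taken from RefSeq (GRCh38.p14), 5′ to 3′ on the strand of the gene. They lie at chr4:73740319-73740568 (plus strand) for CXCL8, chr4:73869143-73869392 (plus strand) for CXCL1, chr4:73998678-73998927 (minus strand) for CXCL5, chr4:74099196-74099445 (minus strand) for CXCL2 and chr19:55370464-55370713 (minus strand) for IL11. Capitals mark matches, on either strand, to the kB-type run GGAATTTCC, the AP-1-type run TGANTCA and the TATA-type run TATAAA, which do not overlap one another in these windows.
CXCL8: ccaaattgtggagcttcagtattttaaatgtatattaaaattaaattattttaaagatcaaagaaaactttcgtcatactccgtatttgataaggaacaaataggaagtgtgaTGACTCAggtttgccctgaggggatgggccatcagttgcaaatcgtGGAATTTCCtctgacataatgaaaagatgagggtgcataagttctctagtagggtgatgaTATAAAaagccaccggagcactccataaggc
CXCL1: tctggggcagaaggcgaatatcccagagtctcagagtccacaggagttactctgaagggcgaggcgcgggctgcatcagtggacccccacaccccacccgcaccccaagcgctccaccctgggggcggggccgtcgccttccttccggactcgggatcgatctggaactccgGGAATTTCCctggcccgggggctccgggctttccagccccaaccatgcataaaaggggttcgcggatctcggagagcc
CXCL5: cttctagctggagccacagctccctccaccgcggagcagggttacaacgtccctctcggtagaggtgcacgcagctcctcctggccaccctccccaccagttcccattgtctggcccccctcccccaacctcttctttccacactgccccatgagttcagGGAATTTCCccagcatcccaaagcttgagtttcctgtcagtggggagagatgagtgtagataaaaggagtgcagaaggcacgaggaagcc
CXCL2: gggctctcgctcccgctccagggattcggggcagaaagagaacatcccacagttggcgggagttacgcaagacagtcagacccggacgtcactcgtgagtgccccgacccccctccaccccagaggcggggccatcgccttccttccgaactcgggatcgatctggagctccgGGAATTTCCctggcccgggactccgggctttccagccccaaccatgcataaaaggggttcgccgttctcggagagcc
IL11: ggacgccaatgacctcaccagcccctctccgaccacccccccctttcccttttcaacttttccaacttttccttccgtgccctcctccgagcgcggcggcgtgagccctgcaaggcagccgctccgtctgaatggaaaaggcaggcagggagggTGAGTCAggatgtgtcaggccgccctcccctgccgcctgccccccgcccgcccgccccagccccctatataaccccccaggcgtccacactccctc

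GGAATTTCC stood in all 4 CXC chemokine windows, 91 bases before the start in CXCL8, 90 in CXCL5, 78 in CXCL1 and 77 in CXCL2. These distances are from the RefSeq starts. The GENCODE starts used for the positions given next lie 63 bases further upstream for CXCL8, 102 for CXCL5 and 98 for CXCL2, and are the same for CXCL1 and IL11, so that the run begins 28 bases before the GENCODE start of CXCL8 but 12 and 21 bases after those of CXCL5 and CXCL2. It was present in 0.380% of 14994 promoter windows of the same length. TGANTCA stood in IL11 (96 bases before the start) and CXCL8 (137 bases before it), against 5.10% of all windows. TATAAA stood only in CXCL8 among these 5, against 9.02% of all windows. Only the exact letters were searched for, so the other windows may hold related forms. The runs were picked from general knowledge of CXCL8 and its relatives, so their presence is a description. Of the genes with GGAATTTCC in the window, 36 were tested. Of these, 16 were called higher (44.4%) and 10 lower, beside 34.4% and 34.7% of all tested genes. Their median log2 fold change was 0.01, beside 0.00 over all tested genes. The 16 include CXCL1, CXCL5 and CXCL8, so they are not independent of the genes described here. CXCL1 and CXCL5 reached the filter in no sh-ctrl library, so their sh-KIF11 levels brought them into the test.

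In GENCODE 29 (GRCh38) the genes of the CXC cluster lie with CXCL8 at chr4:73740506-73743716, CXCL1 at chr4:73869393-73871242, CXCL5 at chr4:73995642-73998779 and CXCL2 at chr4:74097035-74099293. The others are on separate chromosomes or far apart, with IL11 at chr19:55364389-55370463, LIF at chr22:30240447-30246851, CSF1 at chr1:109910242-109930992, CSF3 at chr17:40015361-40017813, CCL2 at chr17:34255218-34257203 and MMP3 at chr11:102835801-102843803.

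The first group by role is the gp130 cytokines. IL11, which acts on fibroblasts, hepatocytes and megakaryocytes, gave 9, 9 and 8 counts in sh-ctrl against 163, 181 and 167 in sh-KIF11. All sh-ctrl libraries were near the detection limit and all sh-KIF11 libraries well above it. The mean level went from 0.492 ± 0.0162 CPM (SD, n = 3) to 8.45 ± 0.311 CPM, a log2 fold change of 4.08 (SE 0.229, 95% interval 3.62 to 4.54, edgeR adjusted p = 2.06e-19). The ratio of levels was 17.1, with a 95% counting interval of 11.6 to 26.5, which covers counting error only. Only 51 of the tested genes had a larger rise. Leaving out any 1 library kept the log2 fold change between 4.05 and 4.11.

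LIF, the second gp130 cytokine, gave 577, 619 and 571 counts in sh-ctrl against 743, 723 and 766 in sh-KIF11. Every sh-KIF11 count was above every sh-ctrl count, and after scaling the groups still did not overlap, at 33.5 ± 1.02 and 36.9 ± 1.96 CPM (SD, n = 3). The log2 fold change of 0.14 (SE 0.0736, 95% interval -0.01 to 0.29) missed the threshold (edgeR adjusted p = 0.0865). The call depended on the settings. Under TMM scaling with at least 10 counts required in every library it passed at 0.17 (edgeR adjusted p = 0.0439). With library totals alone, under which the median of all tested genes shifted by 0.24, LIF was called higher at 0.37 (edgeR adjusted p = 2.00e-05), 0.14 above that median. LIF overlaps 2 antisense genes on the plus strand, and the strand setting of the counting is not given in the sources used here.

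Of 10 receptor genes for these ligands 5 were tested, 3 were lower and none was called higher (median log2 fold change -0.27, beside 0.00 over all tested genes). IL6ST, the shared gp130 chain, was lower by a log2 fold change of -0.62 (edgeR adjusted p = 1.99e-14), and LIFR was at -0.27 (edgeR adjusted p = 0.0123). The LIFR call was lost with upper-quartile factors (-0.19), with library totals (-0.04), on both FPKM scales and without sh-ctrl replicate 3 (-0.18). IL11RA, the private receptor chain of IL11, was low in both groups, with 16, 24 and 17 counts in sh-ctrl against 20, 22 and 24 in sh-KIF11, and its log2 fold change of 0.02 had an SE of 0.321. ACKR2, an atypical chemokine receptor, gave 15, 15 and 14 counts in sh-ctrl against 21, 31 and 28 in sh-KIF11, without overlap. Its log2 fold change of 0.66 (SE 0.325) missed the threshold (edgeR adjusted p = 0.0685), and the call depended on the settings. Within gp130, JAK and STAT3 signalling, 4 of 15 genes were higher, 4 lower and 7 not called. Over all tested genes 34.4% were higher and 34.7% lower. SOCS2, an inhibitor of cytokine signalling, rose by 3.15 and the kinase JAK2 by 1.37 on the log2 scale, while the inhibitor SOCS1 fell by 1.33. The kinase JAK1 and the phosphatase PTPN11 rose by 0.38 and 0.37. PIM1 and IL6R fell by 0.27 and 0.22 and TYK2 by 0.19, but these 3 calls were lost with library totals alone, where IL6R and TYK2 changed sign. STAT3 itself was at -0.08 and SOCS3, a direct STAT3 target, at -0.32, neither called.

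The colony-stimulating factors both rose. CSF1, the growth factor of macrophages, gave 375, 374 and 312 counts in sh-ctrl against 831, 775 and 780 in sh-KIF11. The groups were far apart, at 20.1 ± 1.39 and 39.5 ± 1.99 CPM (SD, n = 3), with a log2 fold change of 0.97 (SE 0.0790, 95% interval 0.81 to 1.13, edgeR adjusted p = 2.64e-14). It was one of the 3 genes of the set, with LIF and CXCL8, that had over 90 counts in every library.

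CSF3, the growth factor of granulocytes, gave 12, 2 and 2 counts in sh-ctrl against 49, 39 and 42 in sh-KIF11. Of the sh-ctrl libraries 2 were at the detection limit and replicate 1 stood above them. The mean went from 0.301 ± 0.322 to 2.15 ± 0.280 CPM (SD, n = 3), a log2 fold change of 2.80 (SE 0.404, 95% interval 1.98 to 3.62, edgeR adjusted p = 7.98e-08). The size depended on that 1 library, since without sh-ctrl replicate 1 the log2 fold change was 4.16, and the other libraries left out in turn gave values down to 2.40. Their receptors were lower or not detected. CSF3R fell by 1.58 on the log2 scale (SE 0.0952, edgeR adjusted p = 2.46e-18), from 486 to 584 counts to 180 to 237, and CSF1R had no count in any library.

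**Figure D1:**
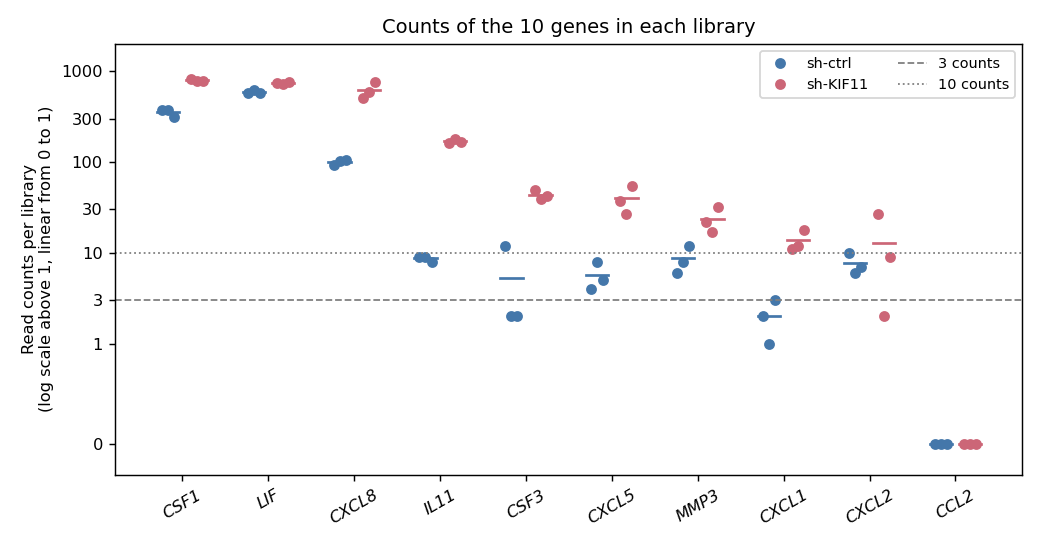
Read counts of the 10 genes in each of the 3 sh-ctrl and 3 sh-KIF11 libraries (points) with group means (bars), on a log scale above 1 count, and lines at 3 counts (detection limit) and 10 counts. IL11 stands at 8 to 9 counts in sh-ctrl and 163 to 181 in sh-KIF11, the CXCL2 groups overlap, and CCL2 is at 0 throughout.

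The CXC chemokine genes lie together on chromosome 4, within 359 kb from the start of CXCL8 to that of CXCL2. CXCL8 (interleukin-8), the main neutrophil attractant among them, gave 93, 103 and 105 counts in sh-ctrl against 507, 585 and 757 in sh-KIF11. The mean rose from 5.71 ± 0.503 to 30.6 ± 6.87 CPM (SD, n = 3), with a log2 fold change of 2.42 (SE 0.123, 95% interval 2.17 to 2.67, edgeR adjusted p = 7.56e-21). The sh-KIF11 libraries differed among themselves by more than counting error (chi-square per degree of freedom 30.7), with replicate 3 highest. The same library held the highest counts of LIF, CXCL1, CXCL5 and MMP3 and the lowest of KIF11. IL11, CSF1, CSF3 and CXCL2 had their highest counts in other sh-KIF11 libraries. Without any 1 library the CXCL8 log2 fold change stayed between 2.23 and 2.54.

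CXCL5, another ligand of CXCR2, gave 4, 8 and 5 counts in sh-ctrl, near the detection limit, and 37, 27 and 55 in sh-KIF11. The mean rose from 0.321 ± 0.112 to 1.98 ± 0.751 CPM (SD, n = 3), a log2 fold change of 2.59 (SE 0.394, 95% interval 1.79 to 3.39, edgeR adjusted p = 2.45e-07). CXCL1 gave 2, 1 and 3 counts in sh-ctrl, all at the detection limit, and 11, 12 and 18 in sh-KIF11. Its sh-KIF11 libraries were above every sh-ctrl library, yet the largest held only 18 counts. Against so few counts the ratio of levels was 5.96 with a 95% counting interval of 2.52 to 17.2, and the fitted log2 fold change was 2.51 (SE 0.605, edgeR adjusted p = 0.000358).

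For CXCL2, whose promoter window carried the same 9-letter run, the groups overlapped. It gave 10, 6 and 7 counts in sh-ctrl, near the detection limit, against 27, 2 and 9 in sh-KIF11. The sh-KIF11 libraries thus lay both above and below the sh-ctrl range. Only 1 of its sh-KIF11 libraries and no sh-ctrl library reached the filter on low counts, so it was not tested, although its summed counts were above those of CXCL1, and a fit without that filter gave a log2 fold change of 0.51 (edgeR adjusted p = 0.425). The means were 0.436 ± 0.116 and 0.633 ± 0.643 CPM (SD, n = 3), the ratio was 1.44 with a 95% counting interval of 0.837 to 2.53, and a two-sided exact permutation test of the CPM values gave p = 0.8, where 0.1 is the smallest p that 3 against 3 libraries allow. The sh-KIF11 libraries differed from one another by more than counting error (chi-square per degree of freedom 13.3), so the counting interval is narrower than the spread between these libraries. Whether CXCL2 differed in response from CXCL8 was not tested.

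The other genes of the cluster were nearly silent. CXCL6, PF4V1 and PF4 had no count in any library, PPBP had 1 count in all, and CXCL3 had 8 counts summed over each group. All 3 cluster genes that could be tested, CXCL8, CXCL1 and CXCL5, were higher, beside 34.4% of all tested genes. CXCL1 and CXCL5 reached the filter in no sh-ctrl library, so they were tested because they were high in sh-KIF11. CXCL8, CXCL1 and CXCL5 were at 0, 129 and 258 kb from the CXCL8 start, with genes at 0 or 1 count in all between them. No 150-base stretch of the transcripts of CXCL1, CXCL2, CXCL5 or CXCL8 occurred in a transcript of another gene, so exact sequence sharing over that length between these related genes was nil. Of the receptors, CXCR1 and the scavenging receptor ACKR1 had no count, and CXCR2 had 3 counts in sh-ctrl against 11 in sh-KIF11.

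**Figure D2:**
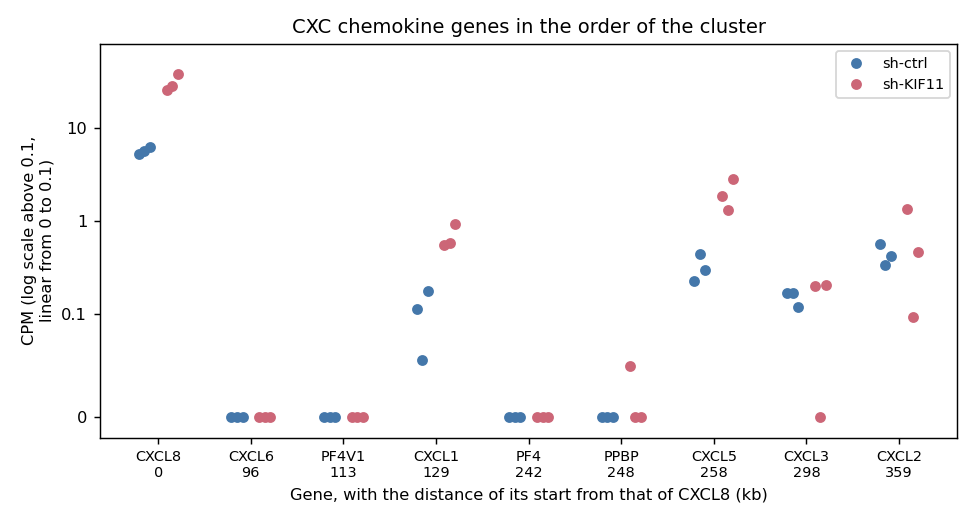
CPM of the CXC chemokine genes of the cluster in each library (points), in the order of their starts, with the distance from the CXCL8 start in kb under each name. The CPM axis is a log scale above 0.1. CXCL8, CXCL1 and CXCL5 are higher in all 3 sh-KIF11 libraries, CXCL2 and CXCL3 overlap, and CXCL6, PF4V1 and PF4 are at 0.

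CCL2, the attractant of monocytes and one of the best known SASP chemokines, had 0 counts in all 6 libraries, which allows at most 0.145 to 0.178 CPM in a library when a count of 0 is given an upper limit of 3 counts. Its receptor CCR2 had no count either. Among 23 further chemokine genes 5 were tested and all 5 were lower, with a median log2 fold change of -0.63, beside 0.00 over all tested genes. CCL20, which attracts CCR6-bearing lymphocytes, fell by 2.29 on the log2 scale (SE 0.0633, edgeR adjusted p = 6.02e-30), from 4033, 4334 and 4456 counts to 1130, 966 and 914. Even so it stayed above CXCL8 in level per transcript length. CXCL16 fell by 1.27, CCL15 by 0.63, CCL16 by 0.42 and CX3CL1 by 0.29 on the log2 scale. On both FPKM scales and with library totals CX3CL1 was no longer called. In sh-ctrl these 5 genes were all at a higher CPM than CXCL8. Untested chemokines went either way at a few counts. CCL26 went from 4, 2 and 1 to 6, 8 and 15, and CCL28 from 0, 2 and 1 to 5, 4 and 5. CCL5 went from 0, 3 and 2 to 2, 0 and 0.

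MMP3 (stromelysin-1), a protease of the extracellular matrix, gave 6, 8 and 12 counts in sh-ctrl against 22, 17 and 32 in sh-KIF11. The groups did not overlap but came within 5 counts of each other. The mean rose from 0.497 ± 0.193 to 1.18 ± 0.407 CPM (SD, n = 3), a log2 fold change of 1.24 (SE 0.394, 95% interval 0.45 to 2.04, edgeR adjusted p = 0.00526). Without sh-KIF11 replicate 3 the call was lost (0.95, edgeR adjusted p = 0.0677). MMP3 overlaps the pseudogene WTAPP1 on the opposite strand.

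Some other genes of matrix proteases and their inhibitors had larger fold changes than MMP3. Of 15 tested genes in that list 8 were higher and 2 lower, beside 34.4% and 34.7% of all tested genes. The median log2 fold change was 1.02, beside 0.00 over all tested genes. MMP2, a gelatinase, went from 6, 3 and 3 counts to 143, 167 and 117 (log2 fold change 4.91, SE 0.295, edgeR adjusted p = 2.01e-18). MMP1, an interstitial collagenase, had 1, 0 and 1 counts in sh-ctrl against 33, 43 and 32 in sh-KIF11, a ratio of 47.1 with a 95% counting interval of 12.7 to 394. SERPINB2, an inhibitor of plasminogen activators, had 0, 1 and 0 counts against 12, 25 and 19, and PLAU, the urokinase it inhibits, rose by 2.34 on the log2 scale. Of the 8 rises MMP1, MMP2 and SERPINB2 reached the filter in no sh-ctrl library and MMP24 in 1, so they were tested because they were high in sh-KIF11, which raises the count and the median above. MMP3 was not counted in that list. The membrane protease MMP15 fell by 1.36 and the inhibitor TIMP3 by 1.34. The inhibitors TIMP2 and TIMP1 rose by 1.41 and 1.02 on the log2 scale.

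Read against all genes, 6 of the 8 tested genes were both called and at least 2-fold higher, against 8.13% of all tested genes. All 8 had every sh-KIF11 library above every sh-ctrl library, against 35.4% of all tested genes. The genes were chosen with earlier results of these data known, and these counts are biased toward a rise by the filter. IL11, CXCL1 and CXCL5 reached it in no sh-ctrl library, and CSF3 and MMP3 in 1 of 3, so they were tested because they were high in sh-KIF11. Among all 329 genes that reached the filter in 3 sh-KIF11 and 0 sh-ctrl libraries, 94.8% were called higher. LIF, CSF1 and CXCL8 reached the filter in every library, and of these CSF1 and CXCL8 were called higher. Their choice, too, was made with earlier results known.

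**Figure D3:**
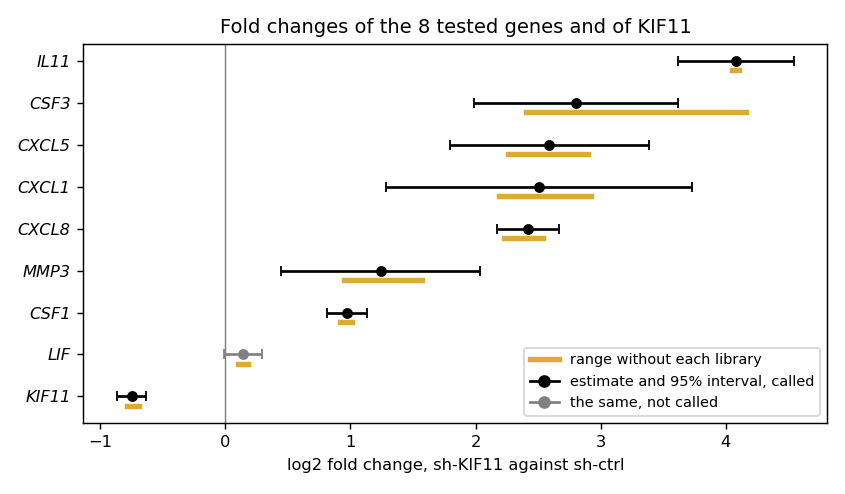
Log2 fold change of the 8 tested genes and KIF11, sh-KIF11 against sh-ctrl, with the 95% interval (black where called, grey where not) and the range when each library is left out in turn (yellow). IL11 is at 4.08, LIF at 0.14 with an interval that includes 0, and the CSF3 range reaches 4.16.

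**Figure D4:**
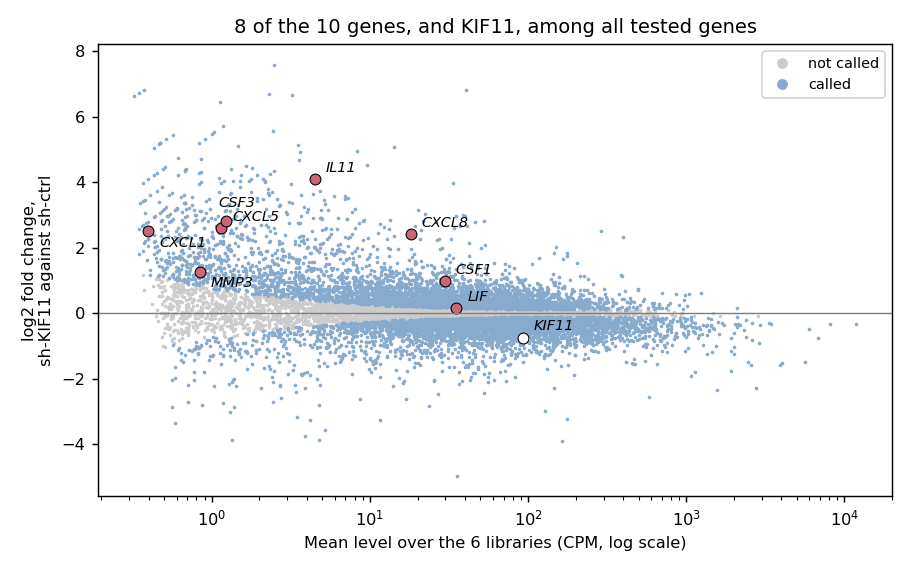
Log2 fold change against the mean level over the 6 libraries (CPM, log scale) for all 12369 tested genes, blue where called and grey where not, with 8 of the 10 genes as red points and KIF11 as a white one. CXCL1, CSF3, CXCL5 and MMP3 lie at the low end of the levels, where folds spread most, and CXCL8, CSF1 and LIF in the body of the genes.

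The order of the genes by level changed between the groups. On the FPKM scale, which divides by transcript length, sh-ctrl had LIF first at 5.55 ± 0.238 FPKM (SD, n = 3), then CSF1 at 2.75 ± 0.179 and CXCL8 at 2.46 ± 0.175, and every other gene was under 0.4 in each library. CSF1 and CXCL8 were not separated in sh-ctrl, since their ranges overlapped. In sh-KIF11 CXCL8 led at 15.5 ± 3.69 FPKM, above 72.4% of tested genes where it had been above 31.7%. LIF followed at 6.82 ± 0.410 and CSF1 at 6.27 ± 0.253 with overlapping ranges, then IL11 at 3.37 ± 0.194. CXCL5 at 1.26 ± 0.484 and CSF3 at 1.21 ± 0.238 overlapped, and CXCL1, CXCL2 and MMP3 had means under 0.7. Of the summed FPKM of the 10 genes, 11.9 in sh-ctrl and 36.1 in sh-KIF11, CXCL8 made up 20.8% and 43.0%, LIF 46.8% and 18.9%, and IL11 1.31% and 9.34%.

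Among 20 other cytokines linked to senescence 10 were tested, 5 were higher and 3 lower. Over all tested genes 34.4% were higher and 34.7% lower. The median log2 fold change was 0.34, beside 0.00 over all tested genes. IL18, a cytokine of the interleukin-1 family, rose by 2.38 on the log2 scale (SE 0.241, edgeR adjusted p = 1.55e-11), from 14 to 18 counts to 89 to 112. CTF1 and CLCF1, which like IL11 and LIF signal through gp130, rose by 1.25 and 0.76. IL15 and IL7, growth factors of lymphocytes, rose by 1.16 and 0.61 (IL15 reached the filter in no sh-ctrl library), but each call was lost with DESeq2 and with some library left out, for IL15 down to 0.89 without sh-ctrl replicate 2 and for IL7 down to 0.44 without sh-KIF11 replicate 2. MIF, which restrains macrophage migration, fell by 0.85. The death ligand TNFSF10 and the TNF receptor TNFRSF1A fell by 0.38 and 0.24, both calls being lost with library totals alone. IL1A, IL1B, CSF2 and TSLP had no count in any library, and IL6, a widely used SASP marker, had 1 count in all 6. TNF had 0, 1 and 0 counts against 3, 1 and 8.

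The regulators of these genes moved in both directions. Of 21 genes of the NF-kB pathway 8 were higher and 7 lower, with a median of 0.12. Over all tested genes 34.4% were higher and 34.7% lower. The adaptor TRAF1 rose by 1.05, from 8 to 16 counts to 23 to 38, and the subunits RELB and REL rose by 0.54 and 0.47. The TRAF1 call was lost without sh-ctrl replicate 2 (0.83) and without sh-KIF11 replicate 2 (0.79). IKBKG, which has a near-identical pseudogene copy, was called at 0.80, yet it held 706 counts in sh-KIF11 replicate 3 and 299 and 289 in the others, and without that library it was at 0.22 and not called. The kinase IRAK1 fell by 0.41, BCL3 by 0.40, the adaptor MYD88 by 0.35 and the inhibitor NFKBIB by 0.26. Of these 4 calls, those of BCL3, MYD88 and NFKBIB were lost with library totals alone. Of 5 C/EBP factors none was higher and 3 were lower, CEBPD by -1.32, CEBPB by -0.63 and CEBPA by -0.36.

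AU-rich elements were counted in the 3′ untranslated regions of one GENCODE 29 transcript of each gene. Such stretches are not shown for the other genes. Among those, LIF, which was not called, and CSF3, which was called higher, held 3 pentamers each, as many as IL11 and CXCL1. Stretches of 30 bases with the most ATTTA pentamers (in capitals) are shown for 4 genes, of which 3 rose and CXCL2, with scattered counts, was not tested.
IL11: ttccaaagccagatcttATTTATTTATTTA
CXCL8: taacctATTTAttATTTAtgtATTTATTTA
CXCL1: cttaggagaagtcttctATTTATTTATTTA
CXCL2: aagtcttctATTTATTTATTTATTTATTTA

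IL11 had 9 ATTTA pentamers in its 3′ untranslated region, CXCL8 9, CXCL1 5, CXCL2 10, CXCL5 11, CSF3 7, LIF 7, CSF1 4, and CCL2 and MMP3 1 each. Per kb, CXCL2 was densest at 13.9, followed by CSF3 at 8.20, CXCL8 at 7.19, CXCL1 at 7.08, IL11 at 5.56 and CXCL5 at 5.51, beside a median of 1.77 over tested genes. The 9-letter form TTATTTATT occurred in 5 of the 10 genes (IL11, LIF, CXCL1, CXCL2 and CXCL8), against 8.23% of tested genes. CSF1, called higher, had 1.86 per kb, close to that median. Of 7 factors that bind or control such elements 5 were lower and none higher (median log2 fold change -0.39). ZFP36L2 fell by 0.62 and ZFP36 by 0.53, both known to speed decay, and HNRNPD, KHSRP and ELAVL1 fell by 0.39, 0.42 and 0.24 on the log2 scale. On both FPKM scales the calls of ELAVL1 and ZFP36 were lost, that of ELAVL1 also with library totals.

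**Figure D5:**
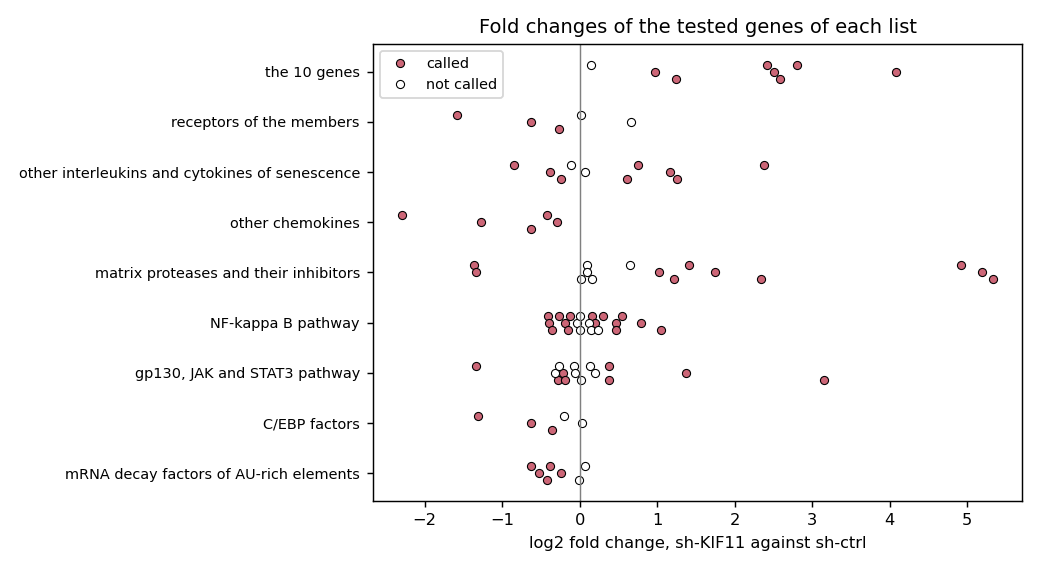
Log2 fold change, sh-KIF11 against sh-ctrl, of the tested genes of each list, filled where called and open where not. The 8 tested genes of the set lie above 0, the other chemokines and the AU-rich element factors are mostly below it, and the matrix proteases spread from -1.36 to 5.33.

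The wider pathways that hold these genes had calls in both directions, beside 34.4% higher and 34.7% lower over all tested genes. The 5 terms, in the order given here, include 7, 3, 1, 5 and 5 of the 8 tested genes. In the KEGG term for cytokine-cytokine receptor interaction, 103 of 292 genes were tested, 36 were higher and 41 lower, with a median log2 fold change of 0.03. The chemokine signalling term had 40 higher and 38 lower of 103 tested (median 0.02), NF-kB signalling 28 and 21 of 67 (0.13), TNF signalling 37 and 27 of 85 (0.12) and IL-17 signalling 25 and 22 of 59 (0.00). IL11 and CSF3 were the 2 largest rises of the cytokine receptor term, ahead of NGFR (2.69) and CXCL5. The falls were led by INHA (-2.72), then CCL20, EPO (-1.83) and CSF3R. CCL20 was among the 4 largest called falls in 4 of the 5 terms. In the NF-kB term TLR4, a receptor of bacterial lipopolysaccharide, went from 0, 0 and 2 counts to 35, 63 and 43, while IL1R1, the receptor of interleukin-1, fell by 1.32 on the log2 scale. ICAM1, an adhesion molecule, fell by 0.93, and CD14 and TNFRSF11A by 1.78 and 0.71, while LCK rose by 1.83 beside CXCL8 and PLAU. The chemokine term was led by PLCB2 (1, 0 and 0 counts against 25, 15 and 16) and RAC2 (4, 1 and 1 against 20, 17 and 14), then CXCL5 and CXCL1, and GNG5 and GRK6 fell by 1.02 and 0.74 beside CCL20 and CXCL16. In the TNF term MAPK11 and CREB5 rose by 2.36 and 1.71 beside CXCL5 and CXCL1, and DAB2IP and ATF4 fell by 0.80 and 0.66. In the IL-17 term MMP1, CSF3, CXCL5 and CXCL1 were the largest called rises, and MUC5B, LCN2 and IL17RB fell by 3.89, 1.85 and 0.65 beside CCL20.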

How the data were processed

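RNA-seq counts and FPKM of 3 sh-ctrl and 3 sh-KIF11 HepG2 libraries were used. Libraries were stranded and made from poly(A) RNA. Trimmomatic, HISAT2 2.1.0, HTSeq 0.9.1, Cufflinks 2.2.1 and DESeq are named in the submitters' processing notes with GRCh38. The authors deposited whole-number read counts per gene, not normalized, and FPKM values. Columns of the authors' annotation were used only for names and KEGG terms. The columns named for the shRNA without a target were taken as sh-KIF11, the only other hairpin in the labels. The genes and lists were chosen with earlier results of these data known.

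Counts were scaled by TMM, genes were kept by filterByExpr (minimum count 10; 12369 of 20030 kept), and groups were compared with edgeR 4.0.16 (glmQLFit, glmQLFTest) without a block, calling Benjamini-Hochberg adjusted p under 0.05. Intervals of log2 fold changes came from the SE of the edgeR fit, which includes the spread between libraries. Counting intervals of ratios and floors (3 counts) cover counting error only. DESeq2 1.42.0 and limma 3.58.1 on log2(FPKM + 1) were alternatives, with other scalings, filters, a replicate block and each library left out. The edgeR, DESeq2 and limma steps were tested on simulated data. A gene with all libraries of a group at 3 counts or less was called at the detection limit, and one with none over 10 near it. Every one of the 10 genes was named with its counts, KIF11 too, and of each list every called gene up to 12 tested genes, otherwise the 4 largest called changes in each direction; genes named beyond this were chosen after their values were seen. Promoters and motifs came from RefSeq tables matched by symbol (5 of the 10 genes), and positions and 3′ regions from GENCODE 29. Of the list of matrix proteases and their inhibitors 1 gene is not reported here and was left out of its counts. The 150-base comparison covered exact matches only. Groups of 3 were too small for a test of outlying libraries.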

Additional observations from a re-analysis of the deposited data

How the results depend on the processing

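Across the other scalings, filters and tools, with the replicate block and without each library, the fold changes of the 8 tested genes kept their direction wherever they were tested, and 109 of their values kept their side of the threshold. The 5 that gained a call were all LIF: 0.22 with upper-quartile factors, 0.37 with library totals, 0.17 with at least 10 counts in every library, and 0.25 and 0.29 in limma on log2(FPKM + 1) and log2(FPKM + 0.1). The 1 that lost it was MMP3 without sh-KIF11 replicate 3. The number of the 10 genes called higher was 6 to 7 without each library and 3 with at least 10 counts in every library, a filter that removes IL11, CSF3, CXCL1, CXCL5 and MMP3 and leaves 1 called gene in the CXC cluster. Without a low-count filter the fibroblast markers had 3 called genes, and without each library the other cytokines had 5 to 9, the lowest without sh-ctrl replicate 2.

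The balance of all calls differed between settings. The share called higher was 49.8% under TMM, 58.5% with upper-quartile factors (median shifted by 0.08), 73.6% with library totals (6621 higher, 2373 lower, median shifted by 0.24) and 68.5% to 68.6% in limma on FPKM, which changes unit, transformation and tool together (2596 and 2597 lower, medians shifted by 0.12 and 0.17). The values that changed sign were IL6R (0.010) and TYK2 (0.038), both with library totals. Replicate numbers did not pair the libraries (correlations of same-numbered deviations 0.0300, -0.0185 and -0.00253). With the replicate block 8607 genes were called, 7 of the 10 genes among them, and KIF11 was at -0.75. Leaving out each library gave 7975 to 8749 called genes. The lowest levels in sh-KIF11, those of CCL2, CXCL1 and CXCL2, rest on 0 to 27 counts a library. In sh-ctrl CSF3 (0.301 CPM) and CXCL5 (0.321 CPM) were also below CXCL2 (0.436 CPM).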
